A study of Mus musculus with 6 samples.

Results

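Glycosaminoglycans are long sugar chains, and the enzymes that build, sulfate, trim and supply them are described here in mouse mammary tumours with and without the proteoglycan serglycin. The list held 48 genes, taken by symbol from the steps of heparan sulfate, chondroitin sulfate, dermatan sulfate and hyaluronan synthesis, and 44 of them were measured among 22180 genes. A gene counted as measured when a probe set carried its symbol alone, and its brightest probe set by mean value was used. Ndst1 had no entry in the annotation table used, and Hs3st3a1, Chpf2 and Chst15 occurred only in probe sets with several symbols, so these 4 are not analysed here. Expression was measured on 6 Affymetrix whole-transcript arrays, 1 per tumour, in breast tumour tissue of 3 PyMT+ SG-/- mice and 3 PyMT+ SG+/- mice. All 6 mice carried PyMT, a transgene for a viral oncoprotein that gives rise to mammary tumours, and the promoter behind it is not given in the sources used here. SG-/- mice lack serglycin, and SG+/- mice, the group they are set against, keep 1 copy of its gene Srgn. Wild-type tumours are not part of the comparison, and the age of the mice is not given in the sources used here. The tissue was bulk tumour, in which fewer cells of a type and less RNA per cell cannot be told apart. Nothing in the labels says how the mice are related, so p-values measure the spread between these 6 samples.

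Sulfated chains are attached to a core protein through a short linkage of xylose, galactose and glucuronic acid, and whichever sugar is added next commits the chain to heparan sulfate or to chondroitin sulfate. Sulfotransferases and epimerases then modify the growing chain, while hyaluronan is made at the plasma membrane with no core protein and no sulfate. Serglycin itself carries chondroitin sulfate chains in many blood cells and heparin in connective tissue mast cells, where Ndst2 is needed to make heparin in mice. The comparison asks whether loss of this one core protein goes with a change in the enzymes that make the chains.

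The array values are log2 expression values made with the robust multi-array average (RMA). Differences are SG-/- minus SG+/- on that scale, tested with limma over all 22180 genes with Benjamini-Hochberg adjustment at 0.05. Srgn, read first as a check of the labels, stood at 5.07, 5.04 and 4.89 in SG-/- tumours 1, 2 and 3, against 6.76, 6.43 and 6.35 in SG+/- tumours 1, 2 and 3, a difference of -1.52 (SE 0.15, limma unadjusted p = 2.1e-05, adjusted p = 0.467). It was lower in every SG-/- tumour, and it passed the silent level, defined below, on 1 array, SG+/- replicate 1. Which part of Srgn is deleted is not given in the sources used here. The arrays differed in spread, with an interquartile range of 2.56 in SG-/- replicate 3 and of 2.85 to 3.15 in the other 5. Of 8 mammary epithelial markers, 7 lay above the silent level on all 6 arrays, and the keratin Krt8 and the adhesion molecule Epcam were among them.

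No enzyme of the 44 passed the test, and neither did any of the 22180 genes (0 called, 0%). At an unadjusted limma p of 0.05 there was 1 member, Hs6st2, which is 2.27% of the members against 2.11% of all genes (1.43% higher and 0.685% lower). Genotypes were fully separated for 3 members, 6.82% against 6.03% of all genes. Hs6st2 was on the higher side, where 2.84% of all genes lay, and Ust and Papss1 were on the lower side, where 3.19% lay. These shares were near the background. The difference was above 0 for 19 members (46.3% of all genes) and below 0 for 25, with a median of -0.03 over the members and -0.01 over all genes. For 35 of the 44 members the difference was smaller than the standard deviation within genotypes, a share that was not computed for all genes. An absolute difference of at least 0.5 was reached by 3 members, Extl1, Hpse and Has2, 6.82% against 2.57% of all genes, and in each of them the genotypes overlapped. The median standard error over the members was 0.18. The plot of differences with their intervals shows the same by step of the pathway.

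**Figure D1:**
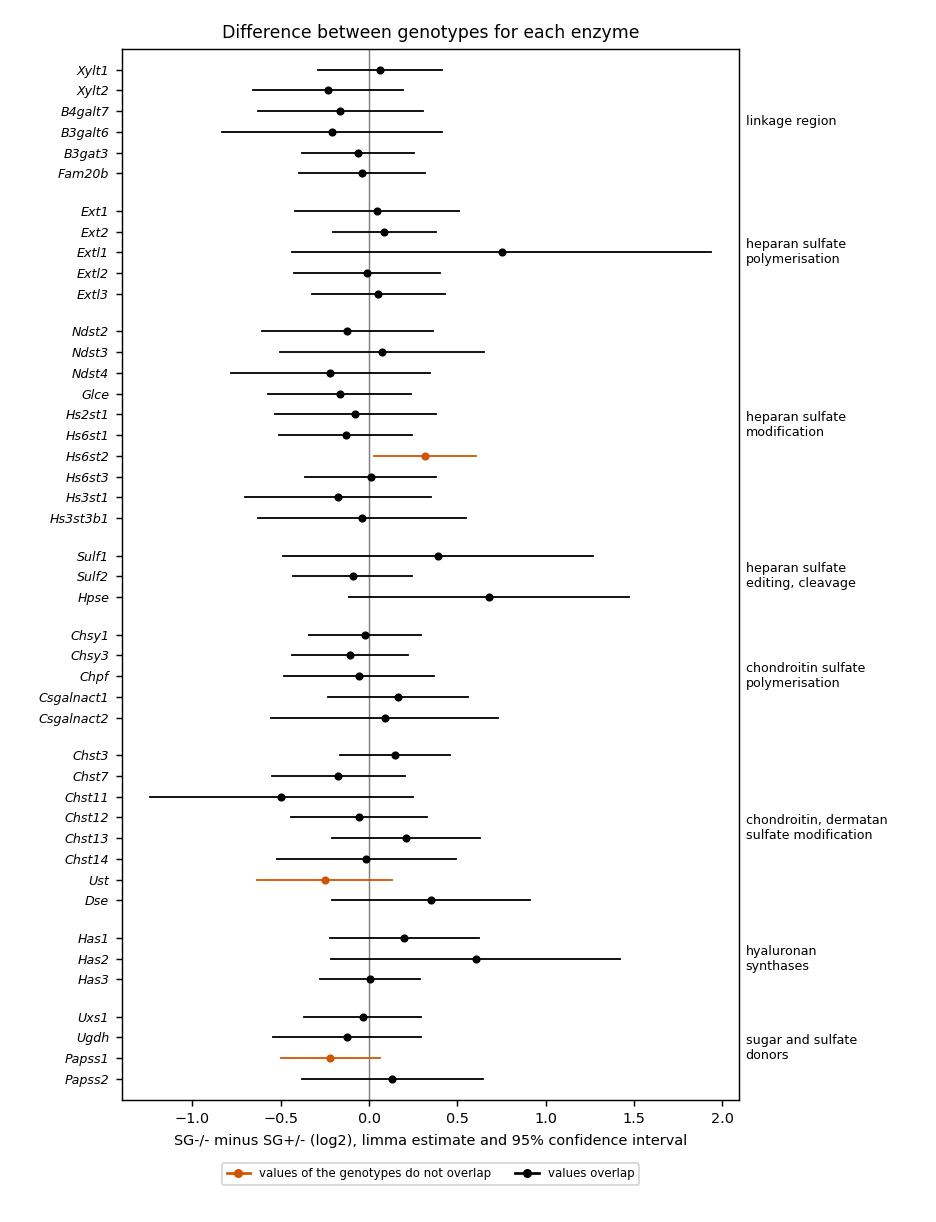
SG-/- minus SG+/- differences (log2, horizontal axis) of the 44 measured enzymes in order of pathway step, with points for limma estimates and lines for 95% confidence intervals. The 3 enzymes in orange, Hs6st2, Ust and Papss1, had values that did not overlap between genotypes, and every interval except that of Hs6st2 (0.03 to 0.61) included 0.

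Each enzyme's signal was set against receptor genes of the nose, which are assumed to be silent in tumours. The silent level of an array is the 95th percentile of 1394 olfactory and vomeronasal receptor genes on it, and it was 6.42, 7.02 and 8.04 in SG-/- tumours 1, 2 and 3, against 6.46, 7.69 and 7.53 in SG+/- tumours 1, 2 and 3. Probe sets differ in brightness, so a gene under this level is not shown to be absent, and levels of different enzymes were not ranked. In all, 16 members lay above it on all 6 arrays, 22 on some arrays and 6 on none. Of all 22180 genes, 6908 lay above it on all 6 arrays, 6691 on some and 8581 on none. The level was highest in SG-/- replicate 3, where 16 members and 32.0% of all genes passed it. In SG-/- replicate 1, 38 members and 59.7% of all genes passed it. Without SG-/- replicate 3 there were 22 members above on every array. With the 40th percentile of all probe sets as the level, 33 members lay above it on all 6 arrays.

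The 16 enzymes above the silent level throughout included enzymes of heparan and of chondroitin sulfate synthesis. They were the linkage enzymes B3gat3, which adds glucuronic acid, and Fam20b, a kinase for the linkage xylose. For heparan sulfate they were the copolymerase subunits Ext1 and Ext2, the chain starter Extl3, the N-deacetylase and N-sulfotransferase Ndst2, the epimerase Glce, the sulfotransferases Hs2st1, Hs6st1 and Hs3st3b1, and the extracellular sulfatase Sulf2. Chondroitin sulfate was represented by its polymerising enzymes Chsy1 and Chpf. The donor enzymes were Uxs1 and Ugdh, which make UDP-xylose and UDP-glucuronic acid, and Papss1, which makes the sulfate donor PAPS. No hyaluronan synthase and no enzyme of chondroitin or dermatan sulfation was above the level on all 6 arrays, although Chst11, Chst14 and Dse were above it on 5 arrays each. The 6 enzymes within the silent level on every array were Ndst3, Ndst4, Hs6st2, Chst3, Chst7 and Has1.

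**Figure D2:**
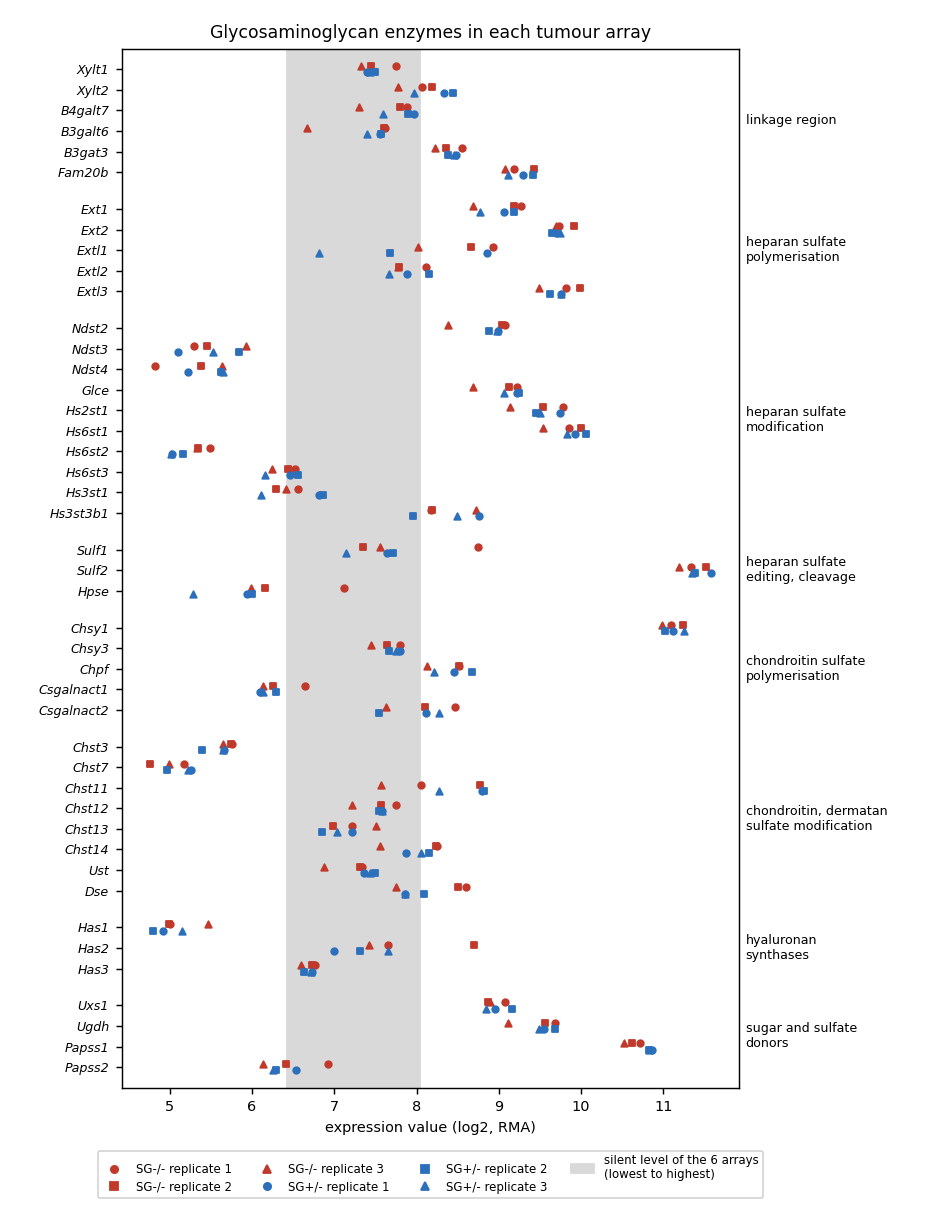
Expression values (log2, horizontal axis) of the 44 enzymes on each of the 6 arrays, with red symbols for SG-/- and blue symbols for SG+/- tumours and 1 symbol shape per replicate. The grey band runs from the lowest (6.42) to the highest (8.04) silent level of the arrays, and 6 enzymes, such as Ndst3 and Has1, lie left of it on all arrays.

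The following sequences set isozymes above the silent level beside isozymes within it. They show the 250 bases upstream of the first listed start of Ndst2 and Ndst3, which both N-sulfate heparan sulfate, and of Hs6st1 and Hs6st2, which both add sulfate at the 6-O position. All are RefSeq sequences of build GRCm38.p6, written 5′ to 3′ in the direction of the gene, with CG pairs in capitals. The window of Ndst2 (above the level on 6 arrays) lies at chr14:20734563-20734812 on the minus strand with 15 CG pairs, and Ndst3 (on none) at chr3:123672478-123672727 on the minus strand with 1. That of Hs6st1 (on 6) lies at chr1:36068150-36068399 on the plus strand with 37, and Hs6st2 (on none) at chrX:51681603-51681852 on the minus strand with 7.
Ndst2: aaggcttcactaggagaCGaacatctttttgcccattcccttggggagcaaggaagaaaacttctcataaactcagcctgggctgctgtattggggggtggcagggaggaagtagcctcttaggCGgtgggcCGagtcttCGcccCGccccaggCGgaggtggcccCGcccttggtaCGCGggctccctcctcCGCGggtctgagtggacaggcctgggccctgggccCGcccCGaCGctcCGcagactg
Ndst3: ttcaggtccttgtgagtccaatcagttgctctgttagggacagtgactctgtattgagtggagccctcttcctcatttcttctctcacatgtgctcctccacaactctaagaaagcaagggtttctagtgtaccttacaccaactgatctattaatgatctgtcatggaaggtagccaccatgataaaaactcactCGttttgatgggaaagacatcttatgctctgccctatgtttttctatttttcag
Hs6st1: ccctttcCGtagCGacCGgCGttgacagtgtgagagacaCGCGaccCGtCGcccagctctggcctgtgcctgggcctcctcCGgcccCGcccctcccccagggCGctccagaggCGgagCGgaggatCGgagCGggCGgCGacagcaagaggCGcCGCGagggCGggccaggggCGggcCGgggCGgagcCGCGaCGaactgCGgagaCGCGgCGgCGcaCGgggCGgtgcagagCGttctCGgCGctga
Hs6st2: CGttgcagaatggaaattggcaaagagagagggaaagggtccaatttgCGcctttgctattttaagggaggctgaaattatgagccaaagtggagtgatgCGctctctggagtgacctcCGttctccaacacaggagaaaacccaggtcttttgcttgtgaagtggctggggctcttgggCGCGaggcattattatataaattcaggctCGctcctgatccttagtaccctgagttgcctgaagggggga
A second listed start of Hs6st2 had 26 CG pairs in the same window, and a second start of Ndst3 had 3. Hs6st3, a further 6-O-sulfotransferase, had 36 CG pairs but passed the silent level on only 2 arrays, so the printed pairs do not stand for all isozymes. CG pairs were counted on the printed strand, where CG reads the same on both.

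Over the 35 measured members with a promoter in the table, the count of CG pairs at the first listed start had a median of 21 in the 14 members above the silent level on all arrays, with a range of 10 to 37. It had a median of 17.5 in the 16 members above it on some arrays and of 7 in the 5 above it on none, with a range of 1 to 18 in these. The median over all 27025 genes in the table was 6, and 38.2% of them had at least 10 CG pairs, against 14 of 14, 14 of 16 and 1 of 5 members in the same order. This is a description of these windows, and no test was made. All genes were not split by the silent level in the same way. Whether the order of the medians is particular to these enzymes was therefore not tested.

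**Figure D3:**
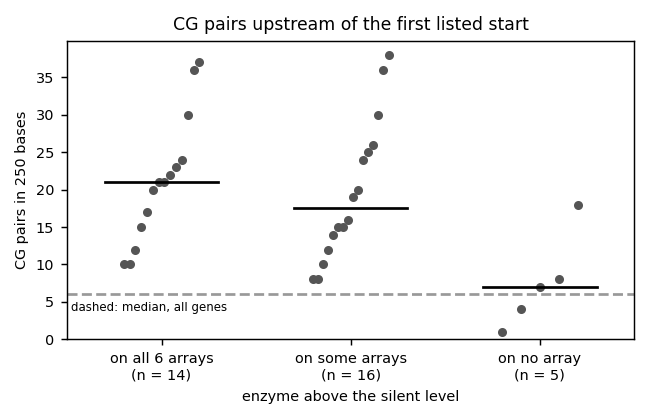
Number of CG pairs (vertical axis) in the 250 bases before the first listed start of 35 enzymes, grouped by whether the enzyme lay above the silent level on all 6, some or no arrays. Points are genes, solid bars are group medians (21, 17.5 and 7) and the dashed line is the median of all genes (6).

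Linkage region enzymes make the stem shared by heparan and chondroitin sulfate. All 6 were measured, none had an unadjusted p under 0.05, and 5 of the 6 differences were below 0, with a median of -0.11. Xylt1, a xylosyltransferase that starts the stem on the core protein, stood at 7.75, 7.44 and 7.32 in SG-/- tumours 1, 2 and 3, against 7.40, 7.49 and 7.44 in SG+/- tumours 1, 2 and 3 (difference 0.06, SE 0.15). The genotypes overlapped. B3galt6, which adds the second galactose, stood at 7.62, 7.60 and 6.67 in SG-/- tumours and at 7.55, 7.57 and 7.39 in SG+/- tumours (difference -0.21, SE 0.26). Only SG-/- replicate 3 was low for B3galt6, and without it the difference was 0.10. All 6 linkage enzymes, the others being Xylt2, B4galt7, B3gat3 and Fam20b, had their lowest value in that array, and the median difference without it was 0.03.

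Heparan sulfate polymerising enzymes had a median difference of 0.05 over 5 measured genes, and none had an unadjusted p under 0.05. Ext1, a subunit of the copolymerase, stood at 9.27, 9.18 and 8.69 in SG-/- tumours and at 9.06, 9.18 and 8.78 in SG+/- tumours (difference 0.04, SE 0.20). The remaining core enzymes Ext2, Extl2 and Extl3 each spanned less than 0.5 over the 6 arrays. Extl1, a glycosyltransferase related to Ext1, had the widest range of all 44 enzymes. It stood at 8.93, 8.66 and 8.02 in SG-/- tumours and at 8.86, 7.68 and 6.82 in SG+/- tumours. The tumours with low Extl1 were SG+/- replicates 2 and 3, while SG+/- replicate 1 was as high as the SG-/- tumours. The difference of 0.75 had a standard error of 0.50 and a 95% interval from -0.44 to 1.94 (limma adjusted p = 1.00). Leaving out SG+/- replicate 1 gave 1.29, and leaving out SG+/- replicate 3 gave 0.27.

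Enzymes that modify heparan sulfate had a median difference of -0.10 over 10 measured genes, with 3 above 0 and 7 below, and without SG-/- replicate 3 the median was -0.0049. Ndst2 stood at 9.07, 9.03 and 8.38 in SG-/- tumours and at 8.99, 8.88 and 8.97 in SG+/- tumours (difference -0.12, SE 0.20). The genotypes overlapped. Of 7 mast cell markers, 5 lay within the silent level on every array, among them the proteases Mcpt4, Tpsb2 and Cma1, while Cpa3 passed it on 1 array and Kit, which epithelium also expresses, on 6. Summed log2 values of the mast cell list ran from 41.6 to 45.0 in SG-/- tumours and from 41.6 to 41.7 in SG+/- tumours. Ndst3 stood at 5.29, 5.45 and 5.93 in SG-/- tumours and at 5.09, 5.84 and 5.52 in SG+/- tumours (difference 0.07, SE 0.24), all within the silent level.

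Hs6st2 (probe set 17541636) was the 1 member with an unadjusted p under 0.05 in the main limma fit. Its values were 5.49, 5.34 and 5.33 in SG-/- tumours and 5.03, 5.16 and 5.02 in SG+/- tumours. Each SG-/- value lay above each SG+/- value. The means were 5.38 ± 0.09 in SG-/- and 5.07 ± 0.08 in SG+/- tumours (SD, n = 3 each), a difference of 0.32 with a standard error of 0.12 (limma unadjusted p = 0.0367, adjusted p = 1.00). An exact two-sided permutation test gave p = 0.1, the smallest that 3 against 3 values allow. All 6 values lay under the silent level of their array, and its relative Hs6st1 differed by less than its spread within genotypes. Left-out arrays moved the difference between 0.26 and 0.36. The unadjusted limma p was 0.0708 with trend and robust eBayes and 0.0251 to 0.125 over left-out arrays, and it was under 0.05 in 2 of those 6 fits. With array weights the unadjusted limma p was 0.00867 (limma adjusted p = 0.310). It was 0.0335 with the mean of the receptor genes as a covariate. Centring on brighter genes gave 0.0412, and the mean of all probe sets gave 0.0356. With repeated quantile normalization Hs6st2 had neither an unadjusted p under 0.05 nor separated genotypes.

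Sulf1, Sulf2 and Hpse act on finished heparan sulfate. The sulfatases remove sulfate outside the cell, and heparanase, made from Hpse, cuts the chain. Sulf1 stood at 8.75, 7.35 and 7.56 in SG-/- tumours and at 7.64, 7.71 and 7.14 in SG+/- tumours (difference 0.39, SE 0.37). Only SG-/- replicate 1 was high, and without it the difference was -0.04. Leaving out SG-/- replicate 2 gave 0.65, and leaving out SG+/- replicate 3 gave 0.21. Hpse stood at 7.11, 6.16 and 5.99 in SG-/- tumours and at 5.94, 6.00 and 5.28 in SG+/- tumours. SG-/- replicate 1 was again highest and SG+/- replicate 3 lowest, and SG-/- replicate 3 lay just under SG+/- replicate 2. For Hpse the genotypes differed by 0.68 (SE 0.33) with a 95% interval from -0.11 to 1.47 (limma adjusted p = 1.00). Leaving out SG-/- replicate 1 gave 0.33, and leaving out SG+/- replicate 3 gave 0.45. Its second probe set stayed at 3.84 to 4.17 on all arrays, so that the mean of both probe sets differed by 0.34. Hpse exceeded the silent level on 1 array, SG-/- replicate 1.

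Markers of stromal and immune cells were also measured. All 8 fibroblast markers, among them the collagen genes Col1a1 and Col3a1, and all 7 macrophage markers, among them Csf1r and Mrc1, had their highest value in SG-/- replicate 1. Their medians relative to the SG+/- mean in SG-/- tumours 1, 2 and 3 were 1.26, 0.12 and 0.44 for fibroblast markers and 0.84, 0.40 and -0.02 for macrophage markers. In SG+/- replicates 1 to 3 they were 0.07, 0.22 and -0.27 for fibroblast markers and 0.04, 0.06 and -0.06 for macrophage markers. Summed log2 values of the fibroblast list ran from 76.6 to 85.1 in SG-/- tumours and from 73.1 to 76.7 in SG+/- tumours, and 6 of its 8 markers lay above the silent level on all arrays. For the macrophage list the sums ran from 61.7 to 68.5 in SG-/- tumours and from 61.3 to 62.0 in SG+/- tumours, and 6 of 7 lay above it on all arrays. Differences between genotypes were above 0 for all 8 fibroblast, 7 macrophage, 6 endothelial and 6 measured T cell markers. They were also above 0 for all 7 mast cell and 5 adipocyte markers, 6 of 7 salivary gland markers and 6 of 8 epithelial markers. None passed the adjusted test. Every SG-/- value lay above every SG+/- value for 3 fibroblast, 3 macrophage, 4 endothelial and 4 T cell markers, against 2.84% of all genes on that side. The same held for 1 marker each of the epithelial, mast cell, salivary gland and adipocyte lists, and 1 salivary gland marker was separated on the lower side. Endothelial markers had 3 of 6 genes above the silent level on all arrays, and their sums ran from 49.1 to 51.9 in SG-/- tumours and from 47.4 to 48.7 in SG+/- tumours. Of the T cell markers 3 lay within the silent level on all arrays. Salivary gland markers had sums of 65.9 and 64.9 in SG-/- replicates 1 and 3, against 47.2 in SG-/- replicate 2 and 46.6 to 51.3 in SG+/- tumours, and adipocyte marker sums ran from 32.4 to 35.8 in SG-/- tumours and from 30.5 to 33.5 in SG+/- tumours. Among the enzymes, 19 of 44 (43.2%) were highest in SG-/- replicate 1, against 20.1% of all genes. Of the 16 enzymes above the silent level on all 6 arrays, 4 (25%) were highest there, against 24.8% of the 6908 genes above it. The part of stromal and immune cells in the enzyme values was not tested.

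Chondroitin sulfate polymerising enzymes had a median difference of -0.03 over 5 measured genes, with none at an unadjusted p under 0.05. Chsy1, a chondroitin synthase, stood at 11.09, 11.24 and 10.98 in SG-/- tumours and at 11.12, 11.02 and 11.25 in SG+/- tumours (difference -0.03, SE 0.13). These values interleaved, and their range of 0.27 was among the narrowest of the list. Csgalnact2, which starts the chain, stood at 8.47, 8.10 and 7.63 in SG-/- tumours and at 8.12, 7.54 and 8.27 in SG+/- tumours (difference 0.09, SE 0.27). High and low tumours occurred in both genotypes.

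Enzymes that sulfate or epimerise chondroitin and dermatan sulfate had a median difference of -0.04 over 8 measured genes. Chst3, which sulfates the 6-O position, stood at 5.75, 5.74 and 5.65 in SG-/- tumours and at 5.66, 5.39 and 5.64 in SG+/- tumours (difference 0.15, SE 0.13), within the silent level. Chst11, which sulfates the 4-O position, stood at 8.06, 8.77 and 7.57 in SG-/- tumours and at 8.80, 8.82 and 8.27 in SG+/- tumours. SG-/- replicates 1 and 3 lay below every SG+/- tumour, and SG-/- replicate 2 lay among them. The Chst11 difference of -0.50 had a standard error of 0.31 (limma adjusted p = 1.00), and its size varied with the array left out. Leaving out SG-/- replicate 2 gave -0.82 with no overlap, and leaving out SG-/- replicate 3 gave -0.22. Array weights turned the sign, to 0.12.

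Ust, which sulfates uronic acid in these chains, stood at 7.34, 7.31 and 6.88 in SG-/- tumours and at 7.36, 7.50 and 7.43 in SG+/- tumours. No values overlapped, but the gap between the nearest tumours was narrow and SG-/- replicate 3 was the low one. The difference was -0.25 (SE 0.16, limma adjusted p = 1.00), and without SG-/- replicate 3 it was -0.10. With array weights Ust differed by -0.13. Dse, the epimerase that turns chondroitin into dermatan sulfate, was chosen for description after its values were seen. It stood at 8.60, 8.50 and 7.75 in SG-/- tumours and at 7.86, 8.08 and 7.86 in SG+/- tumours (difference 0.35, SE 0.24). SG-/- replicates 1 and 2 lay above every SG+/- tumour and SG-/- replicate 3 lay below them all. Leaving out SG-/- replicates 1, 2 and 3 in turn gave Dse differences of 0.19, 0.24 and 0.62, the last with a standard error of 0.12 (limma adjusted p = 0.677). With array weights, which gave SG-/- replicate 3 0.20 and SG-/- replicate 2 4.95, it was 0.59 (limma adjusted p = 0.217).

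Hyaluronan synthases span the plasma membrane and extrude the chain, and all 3 differences were above 0, although that of Has3 (0.00) turned its sign with repeated quantile normalization. Has1 stood at 5.01, 4.99 and 5.47 in SG-/- tumours and at 4.92, 4.80 and 5.14 in SG+/- tumours (difference 0.20, SE 0.18), all within the silent level. Has2, the synthase that mouse embryos need for heart development, stood at 7.65, 8.69 and 7.42 in SG-/- tumours and at 6.99, 7.31 and 7.66 in SG+/- tumours. One tumour, SG-/- replicate 2, stood out, and the other SG-/- tumours lay within the SG+/- range. Means of Has2 were 7.92 ± 0.68 in SG-/- and 7.32 ± 0.33 in SG+/- tumours (SD, n = 3 each), which differ by 0.60 (SE 0.35) with a 95% interval from -0.22 to 1.42 (limma adjusted p = 1.00). Without SG-/- replicate 2 the difference was 0.22, and with array weights, which favour that array, it was 1.05. In SG-/- replicate 2 the fibroblast median was 0.12, and its markers were split. There Dcn, Postn and Fap lay above every SG+/- tumour, Col1a1 and Col1a2 were at their lowest of the 6 arrays, and the others lay within the SG+/- range. The part of fibroblasts in Has2 was not tested. Has3 spanned 0.17 over the 6 arrays, the narrowest range of the 44.

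Donor enzymes supply the sugars and the sulfate for every sulfated chain. Uxs1 stood at 9.08, 8.87 and 8.89 in SG-/- tumours and at 8.95, 9.16 and 8.84 in SG+/- tumours (difference -0.04, SE 0.14). Papss1 stood at 10.72, 10.62 and 10.52 in SG-/- tumours and at 10.86, 10.83 and 10.82 in SG+/- tumours. All SG-/- values lay below all SG+/- values. The Papss1 means were 10.62 ± 0.10 in SG-/- and 10.84 ± 0.02 in SG+/- tumours (SD, n = 3 each), a difference of -0.22 with a standard error of 0.12 (limma unadjusted p = 0.109, adjusted p = 1.00), which is 1.16-fold lower. Left-out arrays kept the Papss1 difference between -0.27 and -0.17, with unadjusted limma p from 0.116 to 0.231. The unadjusted limma p of Papss1 was 0.0400 with trend and robust eBayes and 0.0421 with array weights. Papss2, the second PAPS synthase, stood at 6.92, 6.41 and 6.13 in SG-/- tumours and at 6.53, 6.29 and 6.25 in SG+/- tumours (difference 0.13, SE 0.22). Its high tumour was SG-/- replicate 1, and without that array the difference was -0.09, while without SG-/- replicate 3 it was 0.31.

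**Figure D4:**
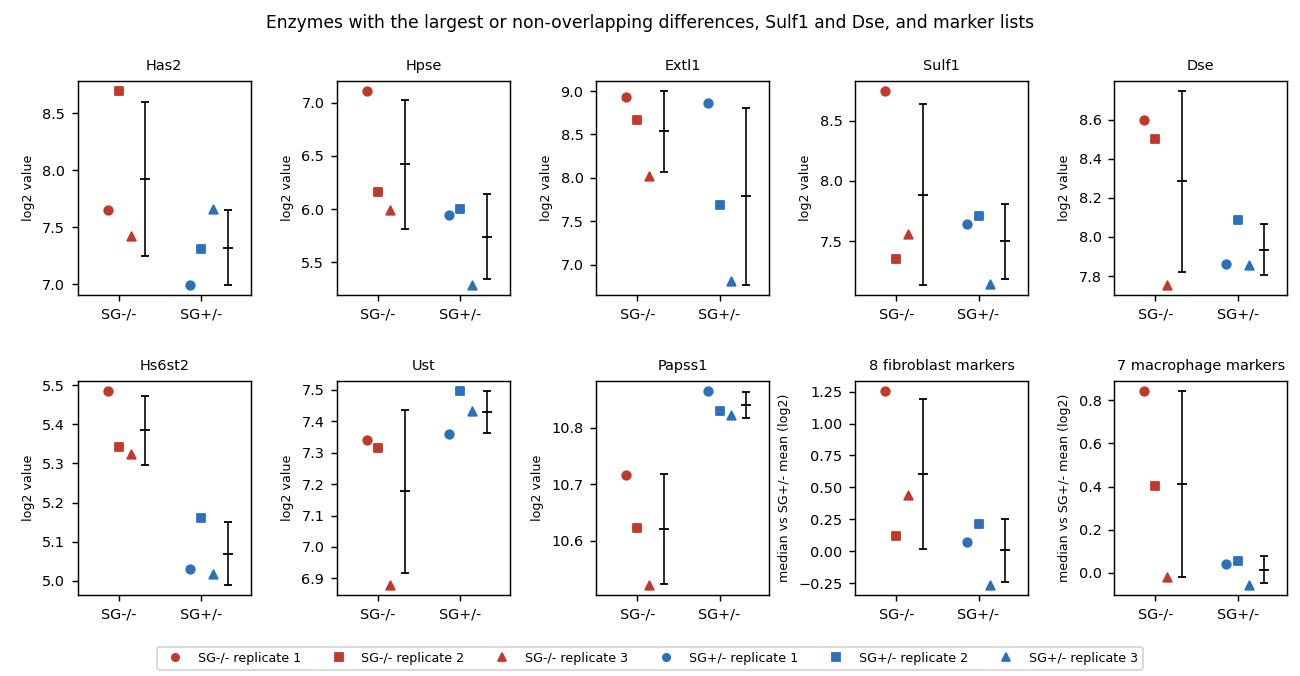
Values of 8 enzymes (log2, vertical axes) and medians of 2 marker lists relative to the SG+/- mean (last 2 panels), with SG-/- tumours on the left and SG+/- on the right of each panel. Coloured symbols are single arrays and black bars are mean ± SD (n = 3). Genotypes separate for Hs6st2, Ust and Papss1, and single tumours stand out for Has2 (SG-/- replicate 2) and for Hpse and Sulf1 (SG-/- replicate 1).

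Single arrays were extreme for many enzymes at once. SG-/- replicate 3 held the lowest value of 25 of the 44 enzymes (56.8%), against 34.3% of all genes. Among the 16 enzymes above the silent level throughout it was lowest for 13 (81.2%), against 61.4% of the 6908 genes above that level. Taken against its SG+/- mean, the median enzyme stood at 0.11, 0.04 and -0.19 in SG-/- tumours 1, 2 and 3, against 0.04, 0.07 and -0.05 in SG+/- tumours 1, 2 and 3. SG-/- replicate 3 had the narrowest interquartile range, and the part of array spread in these low values was not tested. Without SG-/- replicate 3 the genotypes did not overlap for 12 members (27.3%), against 21.6% of all genes, and 3 members had an unadjusted limma p under 0.05 (6.82% against 5.41%). The map of values by array shows the low column and the single high tumours.

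**Figure D5:**
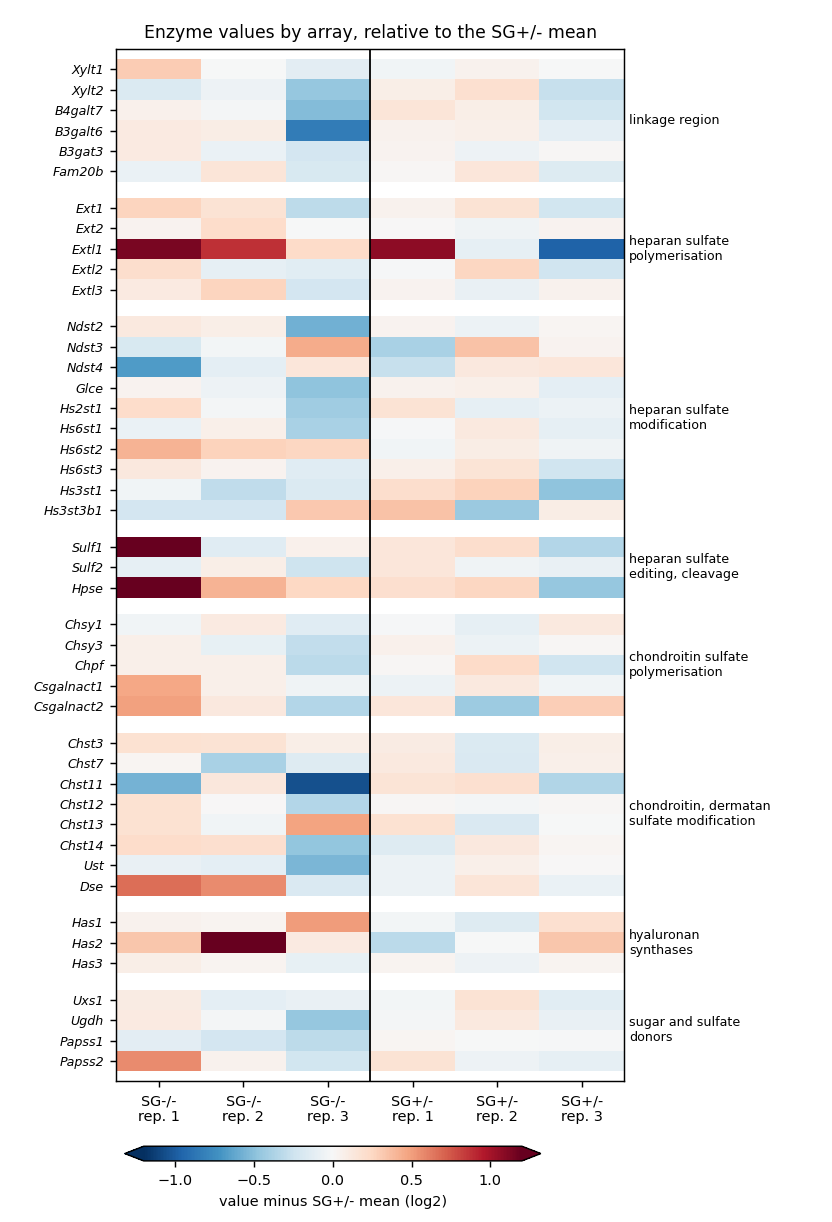
Value of each enzyme on each array minus its SG+/- mean (log2, colour, red higher and blue lower), with SG-/- replicates left of the line and SG+/- replicates right of it. SG-/- replicate 3 is the bluest column, with a median of -0.19, and the darkest red cells are Sulf1 and Hpse in SG-/- replicate 1, Has2 in SG-/- replicate 2 and Extl1 in SG-/- replicate 1 and SG+/- replicate 1.

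Of 40 further pathway genes, 36 were measured, and none passed the test or had an unadjusted limma p under 0.05. Their differences were above 0 for 18 and below 0 for 18, with a median of 0.00 on the log2 scale. They comprised 16 genes of synthesis, transport and phosphatases, 6 keratan sulfate enzymes, 10 genes listed under glycosaminoglycan breakdown and 4 under hyaluronan breakdown. The genotypes did not overlap for 2 of them (5.56%, against 6.03% of all genes). Hs3st6, a further 3-O-sulfotransferase, stood at 6.74, 6.90 and 6.87 in SG-/- tumours and at 6.61, 6.69 and 6.48 in SG+/- tumours (difference 0.24, SE 0.13). Gfpt1, the first enzyme on the route to the amino sugars of the chains, stood at 9.74, 9.75 and 9.81 in SG-/- tumours and at 9.86, 9.84 and 10.14 in SG+/- tumours (difference -0.18, SE 0.13). The limma adjusted p was 1.00 for both.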

How the data were processed

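RNA was extracted with Trizol from snap-frozen tumour tissue, per the labels' protocols. The deposited log2 values per probe set were made by the authors with RMA, and Affymetrix Expression Console and limma also appear, with no version, in the submitters' processing notes. RMA applies quantile normalization over probes, which forces like distributions at that stage and can shift a gene on an array whose RNA is unusual. The genome build is not given in the sources used here. The 6 arrays held 33793 probe sets with 0 missing values and medians from 6.50 to 6.73, and 0 columns were left out.

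Of the probe sets, 23521 carried 1 symbol in the platform's annotation table, 1814 several, and 8458 were not in it. The probe set with the highest mean stood for each of 22180 genes. Genotypes were compared with limma 3.58.1 (lmFit, eBayes; R 4.3.3) on all 6 arrays, two-sided. Simulated data with independent noise for each gene and no array-wide effects served to check the size of the estimates. That check does not give the power of the test on these arrays. A further alternative added the mean of the receptor genes as a covariate. The other alternatives were a filter on dim genes (mean under 6.09), repeated quantile normalization, centring on brighter genes, trend and robust eBayes, array weights, the mean of all probe sets, other silent levels, and leaving out each tumour. Plots were drawn with matplotlib 3.10.9. Sequences come from RefSeq.

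Members and lists were chosen with earlier results of these data known. Values in every array are given for members with an unadjusted p under 0.05, no overlap or an absolute difference of at least 0.5, and in each class for the first written measured member and the one with the widest range. Further pathway genes are named only for such a p or no overlap. Bpnt2 and Cemip2 were matched through older symbols. Precision is limited by having 3 arrays per genotype.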

Additional observations from a re-analysis of the deposited data

How the results depend on the processing

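No paired analysis was made, because each sample's label has its own number and the labels name no pairs. The label numbers fall into separate runs that each hold both genotypes, and the fit did not include these runs. No member was called under any of the 13 alternatives, with a smallest adjusted p of 0.217, for Dse with array weights. Over all genes, 1 was called with the receptor covariate (Srgn, -1.53, adjusted p = 0.0446) and 1 without SG-/- replicate 2, and the range over left-out tumours was 0 to 1. Members at an unadjusted p under 0.05 numbered 0 without dim genes (against 3.05% of all genes). With repeated quantile normalization they numbered 0 (against 2.57% of all genes). They numbered 3 with the covariate (6.82%, against 4.68% of all genes) and 7 with array weights (15.9%, against 11.6% of all genes). Over left-out tumours they numbered 0 to 3 (0% to 6.82%, against 1.47% to 5.41% of all genes). Members without overlap numbered 5 with centring on brighter genes (11.4%, against 8.02% of all genes). Over left-out tumours they numbered 5 to 12 (11.4% to 27.3%, against 12.5% to 21.6% of all genes). Without SG+/- replicate 3 there were 10 (22.7%, against 14.6% of all genes). The count above the silent level was 33 with the 40th percentile of all probe sets. The median difference over members ran from -0.09 to 0.06. Array weights turned 17 of 44 differences and repeated quantile normalization 2, and 29 members changed sign under at least 1 alternative. Single members are named here only where their values in every array are printed above, and further members also changed sign. With array weights the sign turned for B3galt6 (0.11), Chst11 (0.12), Chsy1 (0.036), Has1 (-0.017), Ndst2 (0.059) and Ndst3 (-0.055). Left-out tumours gave ranges across 0 for Xylt1 (-0.062 to 0.15), B3galt6 (-0.37 to 0.10), Ext1 (-0.069 to 0.22), Ndst2 (-0.25 to 0.10), Ndst3 (-0.12 to 0.25), Sulf1 (-0.043 to 0.65), Chsy1 (-0.093 to 0.036), Csgalnact2 (-0.13 to 0.31), Uxs1 (-0.11 to 0.052) and Papss2 (-0.086 to 0.31). Class medians over left-out tumours ran from -0.21 to 0.03 for linkage, 0.02 to 0.19 for heparan sulfate polymerising, -0.11 to -0.0049 for heparan sulfate modifying, -0.04 to 0.65 for editing, -0.11 to 0.07 for chondroitin sulfate polymerising, -0.16 to 0.08 for chondroitin and dermatan sulfate modifying and -0.17 to 0.02 for donor enzymes, and from 0.06 to 0.29 for hyaluronan synthases. The cause of these moves was not tested, and weak signal limits Hs6st2, Hpse, Ndst3, Chst3 and Has1.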

Other observations

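Hpse2, a relative of heparanase that lacks its activity and was chosen here after its values were seen, had a wide spread within both genotypes. It stood at 9.02, 9.77 and 8.01 in SG-/- replicates 1 to 3 and at 8.15, 10.06 and 8.37 in SG+/- replicates 1 to 3, a range of 2.05 on the log2 scale over the 6 arrays. The tumours with high values were SG-/- replicate 2 and SG+/- replicate 2, and the difference between genotypes was 0.07 with a standard error of 0.61.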
